A study of Mus musculus with 2 samples.

Results

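The genes described here are 41 mitosis and spindle genes of the mouse, chosen by symbol from the 28692 genes of the files, and their levels were followed through the cells of the E14.5 retina. Retinas came from heterozygous embryos of the Tg(Lhx4::EGFP)KN199Gsat/Mmucd line, in which a bacterial artificial chromosome drives EGFP from Lhx4 regulatory sequence, so that GFP marks a cell by the transgene and not by the Lhx4 protein. GFP-positive embryos of 2 litters were pooled, and the dissociated cells were sorted into a GFP+ and a GFP- fraction, each of which gave 1 10x Genomics single-cell library. Both fractions carry the transgene and were separated by the sort gate, and no retina without the transgene is compared here. With 1 library per gate there is no replicate, so the intervals given are exact 95% intervals that cover counting error only. UMIs (unique molecular identifiers, tags that mark single captured RNA molecules) of 1 cell are not independent draws from the tissue, and a summed level cannot tell fewer cells with a gene from less of its RNA per cell.

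All 41 genes had 1 row in both matrices and were found in more than 3 cells that passed the cell filter, the rarest of them in 258 cells. After the filter 3689 GFP+ cells remained, which held 15503658 UMIs, or 3894 in the median cell. The 3389 GFP- cells that remained held 30094636 UMIs, or 8848 in the median cell. The 41 genes held 4839 of the GFP+ UMIs and 82276 of the GFP- UMIs. Levels below are CPM, the UMIs of a gene per 1000000 UMIs of the same group of cells. Where cells are counted, each was thinned at random to 3200 UMIs, which left 3110 GFP+ and 3361 GFP- cells. By their markers 3627 of the GFP+ cells were photoreceptor cells, in which Lhx4 stood at 142 CPM, while it stood at 61.6 CPM in the 119 photoreceptor cells of the GFP- library and at 0.0797 CPM in its multipotent cells. Cells with 5 or more UMIs of endothelial, microglial, mesenchymal, pigment epithelium or lens markers numbered 73 and held 151 of the 87115 UMIs of the 41 genes, and 20 barcodes occurred in both libraries.

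A dividing cell enters mitosis when cyclin B and Cdk1 act together, it builds a spindle that pulls the duplicated chromosomes apart, and it leaves mitosis when the anaphase-promoting complex marks the cyclins and securin for destruction. Most genes of this machinery are transcribed late in the cell cycle and silenced in cells that have left it. In the embryonic retina the dividing cells are retinal progenitor cells (RPCs), either multipotent or restricted (neurogenic), and the neurons they give rise to do not divide again.

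By role, the 41 genes comprise the cyclins Ccna2, Ccnb1 and Ccnb2 with their kinase Cdk1, the mitotic entry gene Cdca3, and the anaphase-promoting complex partners Cdc20 (its activator) and Ube2c (its ubiquitin-conjugating enzyme). Aurka, Plk1 and Pbk encode mitotic kinases. Bub1, Bub1b, Bub3 and Ttk act in the spindle checkpoint, and Aurkb, Birc5 and Cdca8 encode subunits of the chromosomal passenger complex. Cenpa (the centromeric histone H3 variant), Cenpe and Cenpf act at the centromere and kinetochore. Kif11, Kif20a, Kif20b, Kif22, Kif23, Kif2c and Kif4 encode kinesins, and Nusap1, Tpx2, Hmmr, Prc1, Ckap2 and Ckap2l encode spindle microtubule proteins. Anln and Ect2 act in cytokinesis. Top2a, Mki67, Cdca2, Cdca5, Esco2 and Neil3 act in chromosome structure, cohesion or repair.

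Promoters of genes expressed late in the cell cycle are known for the cell cycle genes homology region, TTTGAA, and for CCAAT boxes. Both were searched for as exact letters on both strands in RefSeq promoter windows of 300 bases, 250 before and 50 after a start site, on GRCm38.p6, where the motifs can share at most 1 base. A window was matched for 34 of the 41 genes, and not for Aurkb, Ccna2, Cdca2, Esco2, Kif20a, Pbk and Tpx2. TTTGAA lay in the last 100 bases of the window in 25 of the 34 genes (73.5%), against 5.72% of all 27025 genes with a window. CCAAT lay anywhere in the window in 27 of the 34 (79.4%), against 41.1% of all genes, and 22 of the 34 (64.7%) had both, against 2.39% of all genes. These are matches of letters, not sites of binding. The 30 bases around the match, read on the gene's own strand with the motif in capitals, are shown for 7 genes among the higher ratios of the comparisons below (Cdc20, Ube2c, Plk1, Cenpa, Cdk1, Aurka, Hmmr) and for the pair with the smallest difference between the gates (Kif22, Bub3), since both kinds include genes with the motif. These kinds were set by different comparisons and overlap. Aurka was also among the lowest ratios between the gates, and Bub3 was higher in Olig2 neurogenic than in multipotent cells. Other genes with high ratios, such as Ccnb1 and Nusap1, had a window without TTTGAA, and Esco2 and Pbk had no window.
Cdc20, chr4:118437344-118437373, minus strand: agacagttgggtTTTGAAggagccaatgaa
Ube2c, chr2:164769888-164769917, plus strand: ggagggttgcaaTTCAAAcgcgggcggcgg
Plk1, chr7:122159453-122159482, plus strand: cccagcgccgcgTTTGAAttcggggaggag
Cenpa, chr5:30666890-30666919, plus strand: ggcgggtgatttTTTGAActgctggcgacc
Cdk1, chr10:69352910-69352939, minus strand: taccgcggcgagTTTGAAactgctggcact
Aurka, chr2:172370521-172370550, minus strand: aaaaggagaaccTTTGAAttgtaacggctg
Hmmr, chr11:40733412-40733441, minus strand: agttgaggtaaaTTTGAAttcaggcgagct
Kif22, chr7:127042420-127042449, minus strand: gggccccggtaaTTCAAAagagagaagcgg
Bub3, chr7:131560315-131560344, plus strand: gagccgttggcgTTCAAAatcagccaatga

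The first question was how far the genes separate the gates. Summed over all 41, they stood at 2734 CPM in the GFP- library and at 312 CPM in the GFP+ library, 8.76-fold higher in GFP- cells (8.51 to 9.02). Of the 41 genes, 40 were at least 2-fold higher in the GFP- library, where 16.8% of the 15236 genes tested were. The median ratio of the 41 was 21.7, against 0.814 over all genes tested. Among 55 other mitosis genes 52 were at least 2-fold higher in GFP- cells, and among 48 DNA replication genes 42 were.

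The widest differences were in genes that the GFP+ library nearly lacked. Esco2, a cohesin acetyltransferase, stood at 23.9 CPM in the GFP- library and 0.387 CPM in the GFP+ library (61.8-fold, 28.3 to 169). Hmmr, which supports spindle assembly, stood at 29.7 and 0.516 CPM (57.6-fold, 29.1 to 134). Ube2c stood at 189 and 3.87 CPM (48.8-fold, 37.9 to 64.1). The intervals of these ratios overlap, so the order among the leading genes is not resolved at this depth. Aurkb, the kinase of the chromosomal passenger complex, followed at 59.0 and 1.29 CPM (45.7-fold), and Cdk1 at 120 and 2.77 CPM (43.1-fold).

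At the other end, Bub3 did not separate the gates in CPM. The gene of this WD-repeat checkpoint protein stood at 142 CPM in the GFP- library and at 141 CPM in the GFP+ library (ratio 1.01, 0.960 to 1.06). As mean UMIs per cell, which are not scaled for depth, all 41 genes were at least 2-fold higher in GFP- cells. Bub3 had a UMI in 62.0% of GFP- and 43.9% of GFP+ cells at full depth, and in 33.2% and 36.6% after thinning. It held 2180 of the 4839 GFP+ UMIs of the 41 genes, and without it the summed level was 2592 against 172 CPM, a 15.1-fold difference. Kif22, a kinesin that binds chromosome arms, stood at 41.6 and 15.4 CPM (2.71-fold, 2.36 to 3.13). Kif20b (17.3 and 4.13 CPM), Aurka (33.4 and 7.93 CPM) and Ckap2 (21.6 and 4.84 CPM) were between 4.19-fold and 4.46-fold higher in GFP- cells.

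**Figure D1:**
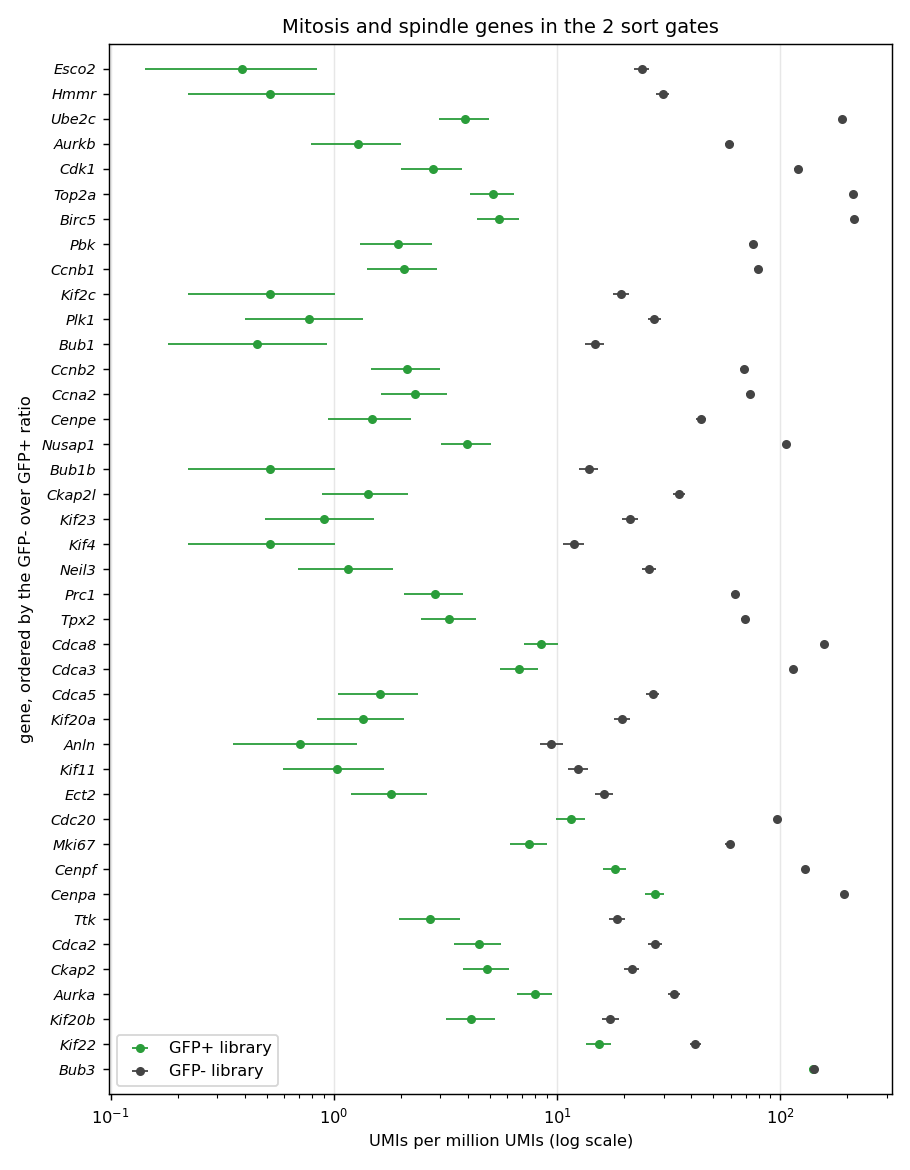
Level of each of the 41 genes in the GFP+ (green) and GFP- (dark) libraries, in CPM on a log axis; bars are exact 95% counting intervals and genes are ordered by ratio. The green points spread from 0.387 CPM for Esco2 to 141 CPM for Bub3, where both points coincide, while every other dark point lies to the right of its green one.

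Few GFP+ cells carried many of the genes. Of 3110 thinned GFP+ cells, 17 had a UMI of 5 or more of the 41 genes (0.547%, 0.319 to 0.874), against 1267 of 3361 GFP- cells (37.7%). By their marker UMIs, 9 of the 17 were multipotent, 3 Neurog2/Atoh7 neurogenic, 2 Olig2 neurogenic and 3 photoreceptor cells. Counting all UMIs of the 3110 cells, those of some genes lay mostly inside these 17 cells, with 52 of 58 for Ube2c, 58 of 78 for Top2a, and all for Bub1 and Esco2. For others most lay outside them, and the share inside took many values between these ends. Among the genes with over 100 UMIs in these cells, Bub3 had 1933 UMIs outside and 23 inside, Kif22 had 210 and 11, Aurka had 107 and 3, Cenpa had 339 and 58, Cenpf had 218 and 39, Cdc20 had 131 and 36, Mki67 had 82 and 20, and Cdca8 had 81 and 43. Since the 17 cells were picked by these same genes, these counts are a description.

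To place the genes in cell classes, cells were classed by marker UMIs that included none of the 41. GFP- multipotent cells (progenitor markers such as Sfrp2, Hes1, Nr2e1 and Fgf15, without Olig2, Neurog2 or Atoh7) numbered 1353. Olig2 neurogenic cells (1 or more Olig2 UMIs) numbered 186, and Neurog2/Atoh7 neurogenic cells (no Olig2) numbered 565. Classes with neuron or photoreceptor markers are called newborn here, whatever their stage. In the GFP- library they were 147 Pou4f2 precursors, 261 ganglion cells, 316 Ptf1a precursors and 119 photoreceptor cells. The GFP+ library held 3627 photoreceptor cells. Gap43, one of the markers that set the ganglion cell class, stood at 3060 CPM in ganglion cells and 307 CPM in Pou4f2 precursors. A further 17 GFP- cells had Tfap2b and no Ptf1a and are not compared below. The other GFP- cells were mixed or unassigned. The few other GFP+ cells were multipotent, neurogenic, ganglion, Ptf1a, mixed or unassigned cells.

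The 41 genes were highest in Olig2 neurogenic cells. Their summed level was 7930 CPM there, 3634 CPM in Neurog2/Atoh7 neurogenic cells and 3099 CPM in multipotent cells. It lay between 256 and 520 CPM in the newborn classes, with 520 in Pou4f2 precursors, 381 in Ptf1a precursors, 336 in GFP- photoreceptor cells, 268 in GFP+ photoreceptor cells and 256 in ganglion cells. No class of newborn cells reached the level of any progenitor class.

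**Figure D2:**
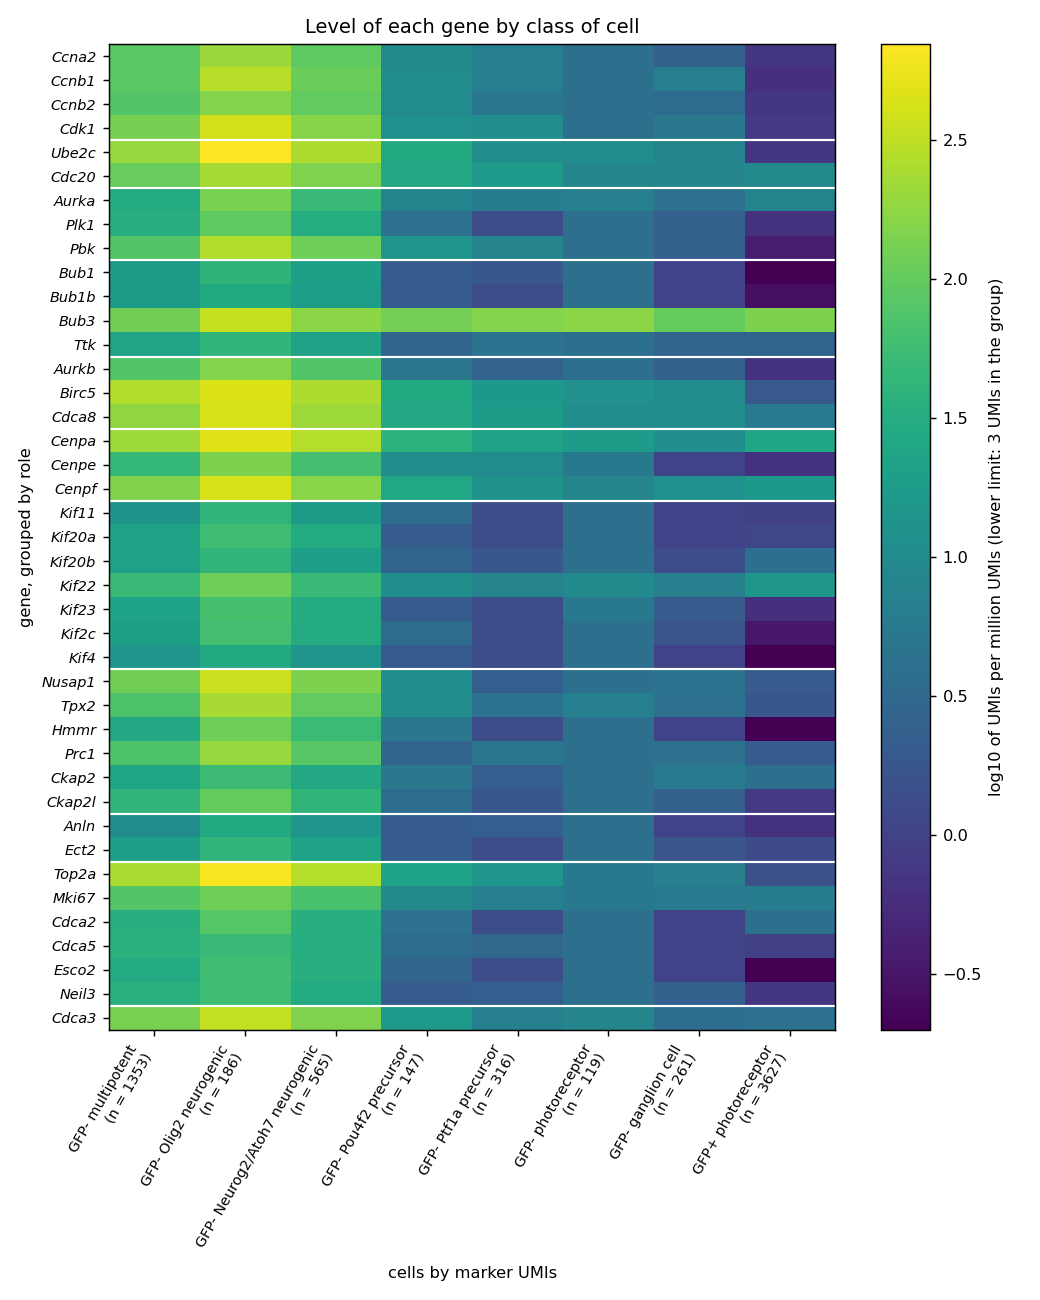
Level of each gene (rows, grouped by role, white lines between roles) in 8 classes of cells (columns, with cell numbers), as log10 of CPM with a lower limit of 3 UMIs in the class. The Olig2 column is the brightest in nearly every row, the newborn columns are dark, and the Bub3 row stays bright across all columns.

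Olig2 neurogenic cells stood 2.56-fold above multipotent cells in the summed level (2.51 to 2.61). Of the 41 genes 31 were at least 2-fold higher, where 7.86% of the 12820 genes tested were, and none was lower in Olig2 cells. The median ratio was 2.44, against 0.979 over all genes. Of the other mitosis genes 28 of 55 were at least 2-fold higher, with Nek2, Gtse1, Spc25, Pttg1 and Kif14 the highest, and of the DNA replication genes 1 of 48 was. The summed replication level was 4226 CPM in Olig2 cells and 4862 CPM in multipotent cells, so that mitosis and replication genes differed in opposite directions between these classes.

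Aurka, the centrosomal kinase of spindle assembly, led with 134 CPM in Olig2 and 30.2 CPM in multipotent cells (4.44-fold, 3.74 to 5.26). Hmmr followed at 114 and 27.6 CPM (4.13-fold, 3.44 to 4.95), Ube2c at 702 and 201 CPM (3.49-fold, 3.25 to 3.75) and Pbk at 272 and 79.9 CPM (3.41-fold, 3.04 to 3.82). Cyclin B1 was part of the same upper end, with Ccnb1 at 291 and 87.5 CPM (3.33-fold). At the lower end, Cdca5, the cohesin-protecting sororin, was at 50.2 and 36.2 CPM (1.39-fold, 1.08 to 1.76), Mki67 at 116 and 79.2 CPM (1.47-fold) and the DNA glycosylase gene Neil3 at 56.3 and 35.7 CPM (1.58-fold). Birc5 (1.66-fold), the survivin subunit of the passenger complex, and Bub1b (1.66-fold) completed the lowest 5. Bub3, level between the gates in CPM, was 2.93-fold higher in Olig2 cells (345 against 117 CPM).

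By role, the anaphase-promoting complex partners stood at 934 CPM in Olig2 and 307 CPM in multipotent cells, and the mitotic kinases at 500.2 and 142 CPM. The spindle microtubule proteins stood at 1071 and 362 CPM. The passenger complex, at 1043 and 532 CPM, and the chromosome structure genes, at 999 and 466 CPM, were closer. Among the roles given here, the difference between the classes was widest for Aurka, Plk1 and Pbk, listed as mitotic kinases, and narrowest for the passenger complex. Aurkb, also a kinase, was counted in the passenger complex, and the remaining roles are not given.

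Counted cell by cell, Olig2 cells again stood above the other progenitor classes, which were level with each other at 5 genes. A UMI of 5 or more of the 41 genes was found in 82.1% of thinned Olig2 cells (75.7 to 87.3), in 49.2% of multipotent cells (46.5 to 51.9) and in 49.3% of Neurog2/Atoh7 cells (45.1 to 53.5). For 10 or more genes the shares were 69.0%, 26.2% (23.9 to 28.6) and 30.9% (27.1 to 34.9) in that order. Ganglion cells, which have left the cycle and had a median of 11703 UMIs, gave 0.383%, and the median UMIs of the 3 progenitor classes lay between 8329 and 9396. Pou4f2 precursors gave 3.42% (5 of 146 cells), Ptf1a precursors 0.952% (3 of 315) and GFP+ photoreceptor cells 0.0979% (3 of 3064). In GFP- photoreceptor cells the count was 0 of 113. Near the limit, 74 multipotent cells had 4 of the genes and 82 had exactly 5.

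**Figure D3:**
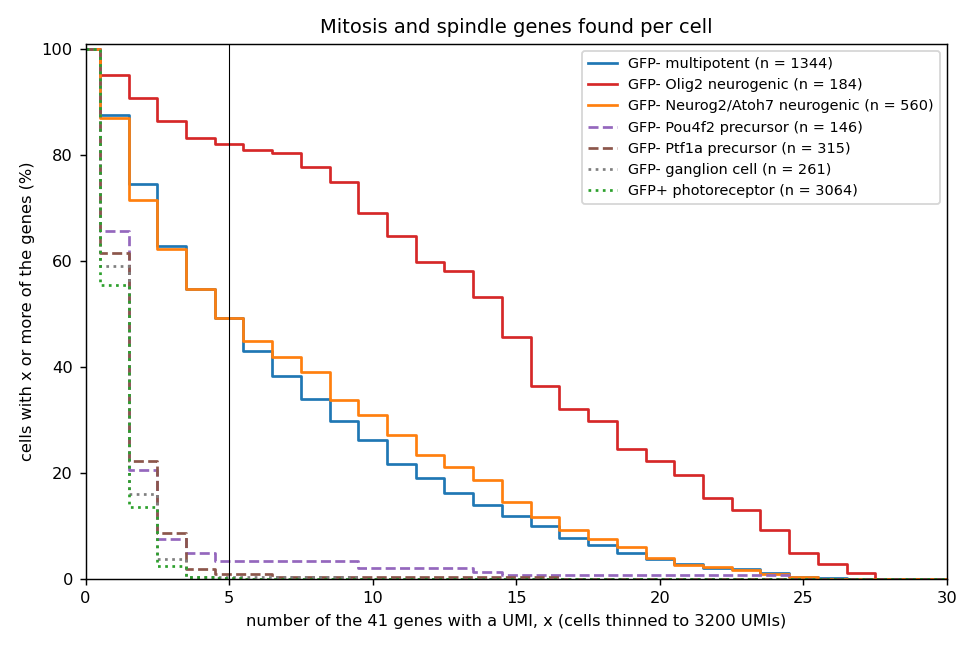
Share of cells (y, percent) with a UMI of at least x of the 41 genes (x, number of genes), for cells thinned to 3200 UMIs; each line is a class and the vertical line marks 5 genes. The Olig2 line lies above the other progenitor lines, the multipotent and Neurog2/Atoh7 lines meet at 5 genes, and the newborn classes lie at 3.42% or less at 5 genes.

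For single genes the thinned shares followed the levels. Top2a, the chromosome-untangling topoisomerase, had a UMI in 69.0% of Olig2 cells, 37.4% of multipotent cells and 1.92% of ganglion cells, or 80.6%, 55.9% and 6.90% before thinning. Bub3 differed, with 57.6%, 26.9% and 32.6% after thinning, so that ganglion cells lay above multipotent cells in this share. In CPM, given below, ganglion cells lay below multipotent cells, so the order of these classes for Bub3 depended on the measure. In GFP+ photoreceptor cells Top2a was found in 0.457% and Bub3 in 36.7% of thinned cells. Cenpa was found in 6.95% of GFP+ photoreceptor cells and 4.21% of ganglion cells, and Kif22 in 4.41% and 1.92%. In ganglion cells Top2a, Ube2c, Cdk1 and Kif22 each had a UMI in 1.92% of thinned cells (0.625 to 4.41), and RNA free in the droplets was not separated from RNA of the cells.

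Neurog2/Atoh7 cells did not show the Olig2 pattern as a whole. None of the 41 genes was 2-fold higher than in multipotent cells (4.61% of genes tested were) and none 2-fold lower (6% were), with a median ratio of 1.14 against 0.982. Hmmr (52.9 against 27.6 CPM, 1.92-fold, 1.62 to 2.26) and Aurka (51.0 against 30.2 CPM, 1.69-fold, 1.43 to 1.99) were the highest, as they were for Olig2 cells. Neil3 was the lowest at 29.1 against 35.7 CPM (ratio 0.815, 0.670 to 0.987). Against Olig2 cells, 28 of the 41 were at least 2-fold lower (4.18% of genes tested were), with Plk1, the kinase of mitotic entry and exit, the farthest at 31.4 against 93.7 CPM (ratio 0.335, 0.266 to 0.422).

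Within these cells the level differed by which of the factors was present. Cells with Neurog2 and no Atoh7 (232 cells) had 2723 CPM of the 41 genes, cells with both (211 cells) had 4488 CPM, and cells with Atoh7 and no Neurog2 (122 cells) had 3960 CPM. The replication genes were highest in the Neurog2-only cells, at 5135, 3790 and 3339 CPM in the same order. Cells with both were at least 2-fold higher than Neurog2-only cells in 6 of the 41 genes (5.79% of genes tested were), namely Hmmr, Cenpa, Cenpe, Cdc20, Kif11 and Ube2c. Cenpa stood at 170, 422 and 259 CPM in the 3 groups in that order, and Cdc20 at 94.7, 227 and 107 CPM. Atoh7-only cells were at least 2-fold higher than Neurog2-only cells in 3 genes (6.24% of genes tested), namely Cenpe, Kif11 and Kif20a, a share near that of all genes. The split was made after the levels of the whole class were seen.

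In each newborn class 40 of the 41 genes were at least 2-fold lower than in multipotent cells, and the exception was Bub3. The share of all genes tested that were 2-fold lower was 21.9% in Pou4f2 precursors, 19.4% in Ptf1a precursors, 20.8% in GFP- photoreceptor cells, 24.2% in ganglion cells and 15.7% in GFP+ photoreceptor cells. These comparisons share the multipotent cells. Median ratios of the 41 genes were 0.133, 0.0771, 0.0644, 0.0566 and 0.0260 in that order, and those of all genes lay between 0.933 and 1.33. Bub3 itself stood at 126, 152, 170, 102 and 141 CPM in the same classes, against 117 CPM in multipotent cells. The GFP+ photoreceptor cells are from the other library and had 3888 UMIs in the median cell, against 9396 in multipotent cells. Class, library and depth cannot be told apart in that comparison. Without Bub3, the genes stood at 127 CPM in GFP+ and 166 CPM in GFP- photoreceptor cells (ratio 0.765, 0.636 to 0.927). The GFP- value rests on 121 UMIs, so the median ratio of that class rests on few UMIs per gene.

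Among the genes that were lower, the ratios ranged widely. In Pou4f2 precursors Aurka stood at 7.92 CPM (ratio 0.262, 0.130 to 0.474) and Cdc20 at 27.3 CPM (ratio 0.259, 0.183 to 0.358). Of 146 thinned Pou4f2 precursors, 5 had between 9 and 24 of the 41 genes and all others had 4 or fewer, so a few cells bear on these values. Prc1, the crosslinker of the spindle midzone, stood at 2.88 CPM against 73.7 CPM (ratio 0.0391). That level is near the 2.16 CPM that 3 UMIs make in Pou4f2 precursors. In GFP+ photoreceptor cells Kif22 stood at 15.1 CPM (ratio 0.306, 0.262 to 0.357) and Aurka at 7.88 CPM (ratio 0.261, 0.210 to 0.321). Kif20b and Ckap2 followed at ratios of 0.185 and 0.164. Ube2c, by contrast, stood at 0.728 CPM against 201 CPM (ratio 0.00362, 0.00181 to 0.00649), and Bub1 and Esco2 had no UMI in 3627 cells, where the upper end of the interval for a count of 0 is 0.244 CPM. Aurka and Kif22 were among the 6 highest ratios in all 5 newborn classes.

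To compare cells nearer in cycle state, progenitor cells of the 3 classes (2088 after thinning) were ranked by the 55 other mitosis genes and the 48 replication genes. Neither list shares a gene with the 41. Cuts on such ranks do not separate how many cells were in a phase from how much of a gene each cell held. The first list also holds mitosis genes, so differences of the 41 genes between these states are a description. The top 25% by the first list had more than 15 UMIs and the top 25% by the second more than 20. These limits cut a continuous range, with 107 and 133 cells at the limit or 1 UMI above it. They left 446 mitosis-high cells, 439 replication-high cells, 50 cells high in both and 1153 in neither. The 41 genes stood at 9343 CPM in mitosis-high cells, 1694 CPM in replication-high cells, 4889 CPM in both and 1898 CPM in neither.

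Mitosis-high cells were at least 2-fold above replication-high cells in 38 of the 41 genes (5.45% of genes tested were), with a median ratio of 4.80 against 0.992. Ube2c led at 903 and 29.4 CPM (30.8-fold, 25.6 to 37.3), then Cenpa at 660 and 23.9 CPM (27.6-fold, 22.5 to 34.2) and Plk1 at 128 and 5.72 CPM (22.4-fold, 14.8 to 35.6). Cdc20 (20.5-fold), Aurka (15.5-fold) and Ccnb1 (14.8-fold) came next. The exceptions were the cohesin regulators Cdca5 (1.35-fold, 1.12 to 1.65) and Esco2 (57.7 and 36.6 CPM, 1.58-fold) and the repair gene Neil3 (55.0 and 39.6 CPM, 1.39-fold). The products of Cdca5 and Esco2 act on sister chromatid cohesion from DNA replication onward.

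Cells high in neither list set a few genes apart from the rest. Against replication-high cells they were at least 2-fold higher in 4 of the 41 genes (3.94% of genes tested were). Cenpa stood at 170 against 23.9 CPM (7.12-fold, 5.79 to 8.84), Ccnb2 at 71.3 against 23.6 CPM (3.02-fold) and Cdc20 at 55.1 against 19.2 CPM (2.88-fold), with Ube2c at 72.3 against 29.4 CPM (2.46-fold). Cdca5 and Esco2 were at least 2-fold lower (2.52% of genes tested were), and Cdk1, the kinase that cyclin B2 activates, was lower too at 72.8 against 117 CPM (ratio 0.621, 0.553 to 0.699). The median of the 41 was 0.974. Cenpa and Ccnb2 thus stood higher in cells below both limits than in replication-high cells, while Cdk1 stood lower. The other cyclins of the list, Ccna2 and Ccnb1, were not among the 4 genes. Summed, the 41 genes stood at 1694 CPM in replication-high cells and at 1898 CPM in cells below both limits. Such cells were not free of either list, with the other mitosis genes at 2065 CPM and the replication genes at 3977 CPM. Of the 1153 cells, 408 (35.4%) had 5 or more of the 41 genes.

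**Figure D4:**
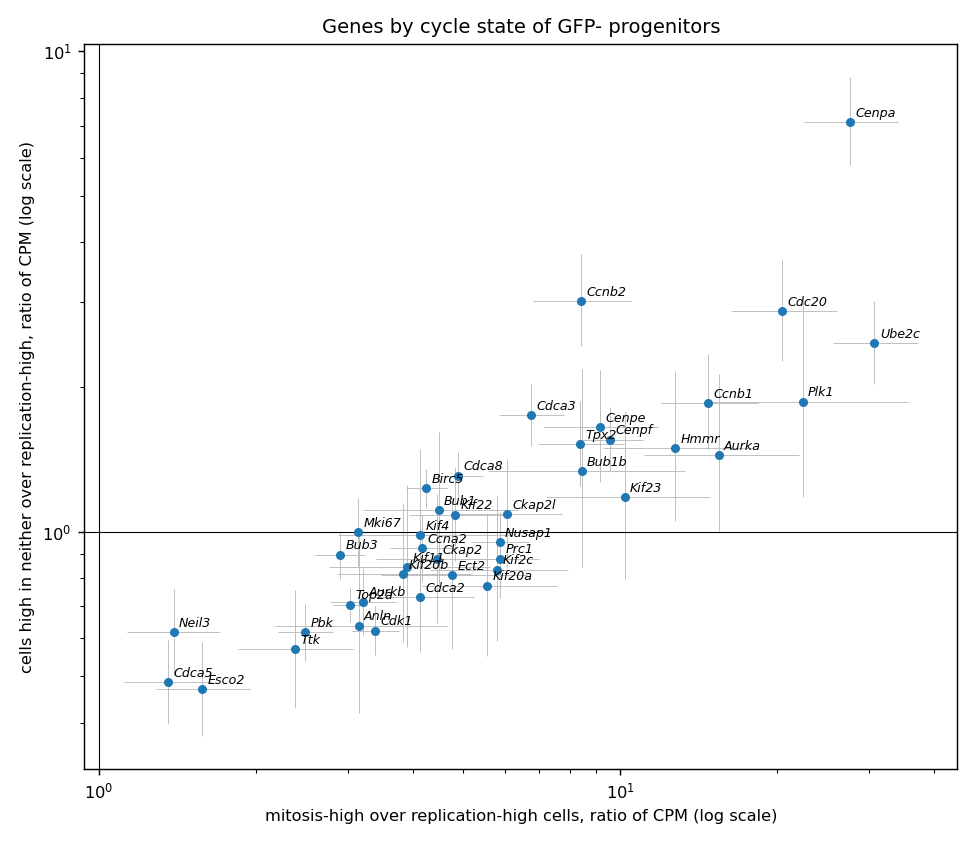
Each of the 41 genes by its CPM ratio of mitosis-high over replication-high cells (x, log axis) and of cells high in neither list over replication-high cells (y, log axis) among GFP- progenitor cells; lines are exact 95% counting intervals and the black lines mark a ratio of 1. Cenpa stands alone at 27.6 and 7.12, Ube2c, Cdc20 and Ccnb2 lie above 2 on the y axis, and Cdca5, Esco2 and Neil3 lie at the lower left.

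The Olig2 difference was then read within each state. Of 184 thinned Olig2 cells 105 were in the mitosis top 25%, against 253 of 1344 multipotent cells, counting cells also high in replication. Within them the 41 genes stood at 10703 CPM in Olig2 and 8343 CPM in multipotent cells (1.28-fold, 1.25 to 1.31), against 2.56-fold over all cells. In the same cells the 55 ranking genes were 1.18-fold and the replication genes 1.24-fold higher in Olig2 cells. In thinned UMIs the median ratio of the 41 genes was 1.26. In all UMIs of these cells 1 gene, Pbk, was 2-fold higher (346 against 163 CPM, 2.12-fold, 1.83 to 2.45), where 7.32% of genes tested were. Cdk1 (576 against 314 CPM, 1.84-fold) and Aurka (198 against 108 CPM, 1.83-fold, 1.52 to 2.20) followed. Mki67 (142 against 169 CPM, ratio 0.841, 0.691 to 1.02) and Bub1b (37.6 against 54.4 CPM, ratio 0.690, 0.468 to 0.995) were lowest, while Cdc20 was nearly level at 340 against 362 CPM. In thinned UMIs of the same cells the ratios were 1.95 for Pbk, 0.618 for Mki67 and 0.748 for Bub1b.

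Outside these mitosis-high cells the classes differed more. Replication-high cells that were not mitosis-high had 3897 CPM of the 41 genes in 23 Olig2 cells (3618 to 4192) and 1480 CPM in 315 multipotent cells (1436 to 1524). Of the 41 genes 27 were at least 2-fold higher in the Olig2 cells (9.14% of genes tested were). Among them Nusap1, a microtubule bundling protein, stood at 291 against 48.2 CPM (6.04-fold, 4.33 to 8.32). The replication genes stood at 8338 CPM in these Olig2 cells and 7552 CPM in these multipotent cells. The other mitosis genes, used for the ranking, stood at 4075 and 2293 CPM in the same order (1.78-fold, 1.65 to 1.92). The classes were thus not level in the ranking mitosis genes within this state. Cells high in neither list had 3200 CPM in 56 Olig2 cells and 1902 CPM in 776 multipotent cells. There the other mitosis genes stood at 2746 CPM in Olig2 and 2118 CPM in multipotent cells, and the replication genes at 2965 and 4340 CPM. The Olig2 cells of these states were few and had lower median UMIs (7581 and 7340) than the multipotent cells (9425 and 9126). The part of depth, or of the unequal level of the ranking genes, in the difference was not tested.

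**Figure D5:**
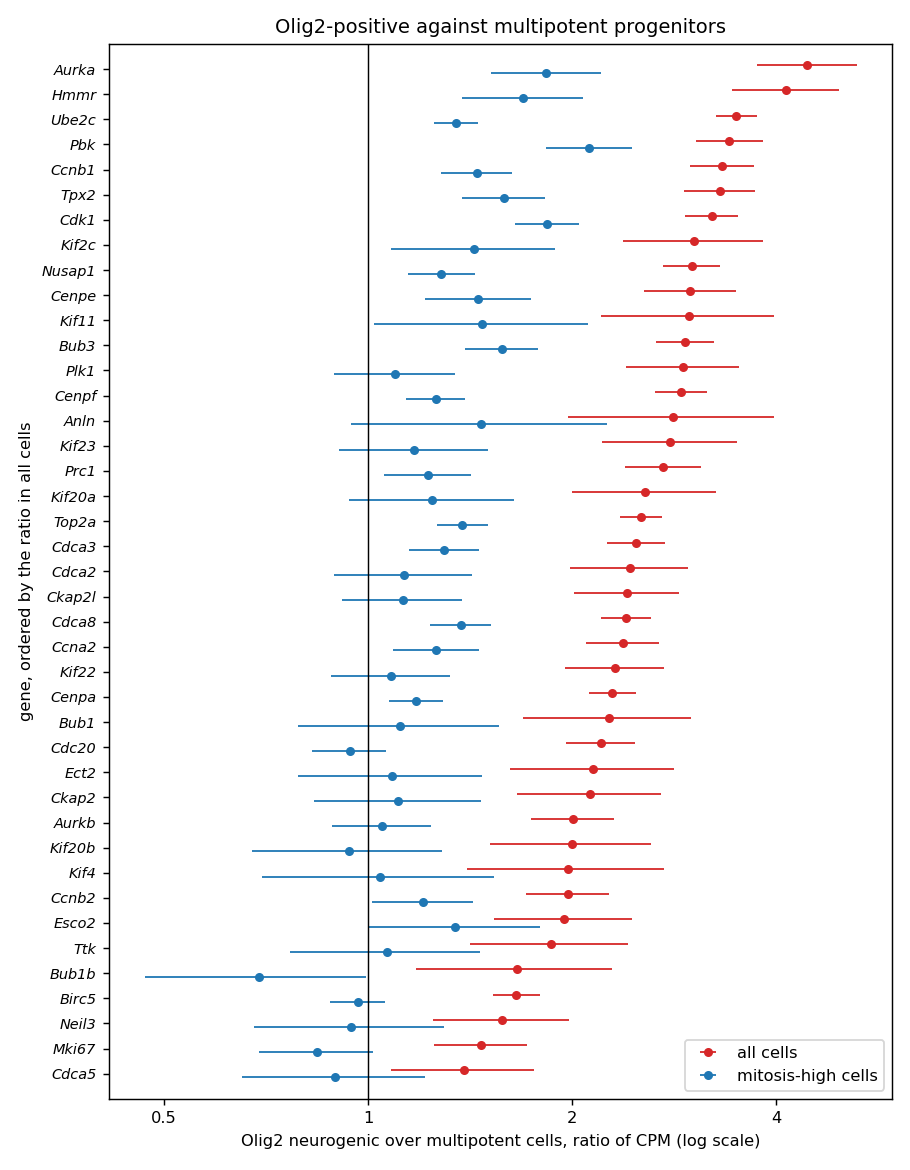
CPM ratio of Olig2 neurogenic over multipotent cells for each of the 41 genes (log axis), in all cells (red) and in the top 25% of cells by the other mitosis genes (blue), with exact 95% counting intervals. All red points lie above 1, from 1.39 for Cdca5 to 4.44 for Aurka, and every blue point lies to the left of its red one.

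The limit on genes per cell left out more of the cells with many of these genes. Of multipotent cells with 5 or more of the 41 genes, 28.2% (260 of 921) had 3500 genes or more and were left out, against 4.74% (34 of 717) of those with fewer. The 294 multipotent cells over the limit held 7665 CPM of the 41 genes, against 3099 CPM in those kept. Of the 41 genes 34 were at least 2-fold higher in them (1.94% of genes tested were), with Ube2c at 803 against 201 CPM the highest and Neil3 (1.28-fold) the lowest. Of the 1055 GFP- cells with 3500 genes or more, 73 were called doublets, and the part of doublets in these levels was not tested. The limit also left out 528 of 789 ganglion cells (66.9%), so the ganglion cell values above are those of the 261 with fewer genes.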

How the data were processed

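The deposited files hold counts: UMIs per gene and cell from Cell Ranger 2.1.1 (the submitters' processing notes), made by the authors for 1 GFP+ and 1 GFP- library of embryonic day 14.5 retina. The methods name the mm10 Cell Ranger reference. Kept cells had 250 or more and under 3500 genes, with under 0.25 of their UMIs from mitochondrial genes. The methods print this limit as a percentage, and it was read as a fraction, a reading that remains uncertain. Doublets were called with Scrublet in scanpy 1.11.5 (15 GFP+, 77 GFP-) and left in. The 41 genes, the other gene lists and the classes were chosen with earlier results of these data known. Classes were set by UMIs per cell: photoreceptor (Crx, Thrb, Gngt2, Gnb3, sum of 3 or more), ganglion cell (Gap43, Rbpms, Sncg, Nefl, Nefm, 10 or more), Pou4f2 precursor (2 or more), Ptf1a precursor (Ptf1a and Tfap2b, 2 or more, with Ptf1a), then Olig2 (1 or more), Neurog2 plus Atoh7 (2 or more) and multipotent (marker sum of 3 or more). No test across replicates was possible. CPM intervals are exact Poisson, ratios exact conditional binomial and shares Clopper-Pearson, computed with scipy 1.17.1. The ratio intervals were tested on simulated Poisson counts, which hold no variation between cells. A fold count covers genes with 10 or more UMIs in both groups together. The plan was to give values for the 5 highest and 5 lowest genes with 20 or more UMIs. In several comparisons only some of these are given, and a few others were named after their values were seen. TMM factors came from edgeR 4.0.16. Of the 34 genes with a promoter window, 32 had a window that ended within a transcript of the gene. Bub3, Ect2 and Prc1 had 2 windows each, of which this check counted 1. Of the 41 genes, 10 overlap genes on the opposite strand and none overlaps on its own strand.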

Additional observations from a re-analysis of the deposited data

How the results depend on the processing

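No paired analysis was possible because each gate is 1 library, and for the same reason no replicate could be left out. No direction turned under any alternative, and 40 of the values recomputed stayed close to the reported ones, while 17 moved. Several alternatives could change little, so these numbers do not measure stability. Leaving out doublets removed 4 of 3389 kept GFP- cells and 13 of 3689 kept GFP+ cells, and a 1.5-fold limit cannot lower a count of genes. The GFP- over GFP+ ratio of the summed level, 8.76, was 9.20 with no upper limit on genes per cell, 10.6 with TMM factors, 18.5 as mean UMIs per cell and 15.1 without Bub3, an alternative chosen after seeing the data. The Olig2 over multipotent ratio, 2.56, was 2.12 with no upper limit, 2.99 with class thresholds doubled, 2.62 with TMM factors, 2.49 as the mean of per-cell values and 2.51 in thinned cells. The multipotent share of 49.2% was 56.2% with no upper limit, 26.2% for 10 or more genes and 70.7% at full depth. The Olig2 share of 82.1% was 87.9% with thresholds doubled and 69.0% for 10 or more genes. The median ratio in mitosis-high cells, 1.26, was 1.40 with thresholds doubled, 1.43 with classes set in thinned cells and 1.14 in the top 10% of cells. Depth limits the small classes: 3 UMIs are 4.11 CPM in the 119 GFP- photoreceptor cells and 1.84 CPM in the 186 Olig2 neurogenic cells, and the cause of each shift was not tested.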
